A study of Homo sapiens with 12 samples.

Results

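The intervals described here were called in an anti-HA ChIP over input in Huh7 cells that carry HA-tagged HOXA13. They are every entry of the authors' peak list for that pair of libraries that lies on chromosomes 1 to 22. They number 28346 of the 30170 intervals in that list, and of 164693 in the 4 peak lists of the study. The series comprises 12 chromatin immunoprecipitation sequencing (ChIP-seq) libraries from HepG2, Huh7 and tagged cells of both lines, each with a specific antibody, with mouse IgG and as input. Huh7 and HepG2 are established human liver cancer lines. The tagged Huh7 cells were stably transfected with HOXA13 bearing the HA epitope. The sources used here do not say which promoter drives the transgene, whether the cells are 1 clone, or how much HOXA13 they make beside it. Chromatin of these cells was taken up with an abcam antibody to HA, and an aliquot set aside before the antibody step served as input. There is 1 ChIP library and 1 input library, so nothing below has a replicate check, and the 4 IgG libraries were not analysed here. The other lists, used as background only, are anti-HA in tagged HepG2 (34089 intervals on chromosomes 1 to 22), anti-HOXA13 in untagged Huh7 (10246) and anti-HOXA13 in untagged HepG2 (71316).

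HOXA13 is a homeodomain transcription factor encoded at the 5′ end of the HOXA cluster. It is best known for patterning the distal limb and the urogenital tract, and it is often found expressed in liver cancer, although adult liver makes little of it. The HA tag is a short peptide, and its antibody is used to recover the introduced protein with the DNA crosslinked to it, along with some chromatin held nonspecifically. Peak callers such as MACS2 compare the fragments piled up at each position with the number that input predicts there. In cancer lines that prediction also moves with the copies of a region in the genome and with repeats that the reference holds too few times.

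Most of the intervals stood on few fragments. The fold deposited by the authors, which divides the ChIP pileup at the summit by the pileup that input predicts, after adding 1 to both, ran from 1.23 to 12.9 with a median of 2.57. Its 10th percentile was 2.05 and its 90th 3.25. The ChIP pileup at the summit was 7 to 228 fragments (median 11), where input predicted a median of 3.39. A fold of 5 or more was reached by 21 intervals (0.0741%) and a fold of 3 or more by 5805 (20.5%). A q of 0.05 was reached by 1875 intervals (6.61%), and 106 (0.374%) had a −log10 q of 5 or more and are called strong below. The median −log10 q over all intervals was 0.047, so most single calls are not separated from background after correction. In the other lists, a fold of 5 was reached by 10.8% of HepG2 anti-HA, 2.01% of Huh7 anti-HOXA13 and 0.0982% of HepG2 anti-HOXA13 intervals. Strong intervals made up 21.2%, 2.6% and 0.468% of those lists, in the same order.

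The strong intervals were divided here into 2 sets by their input. Raised input, meaning an expected pileup over 3 times the genome background of 2.61, was present at 2286 intervals (8.06%) and at 55 of the 106 strong ones. Those 55 had a median fold of 2.66 on a median of 73 ChIP fragments against 27.2 expected. The other 51 had folds of 3.77 to 12.9 (median 4.79) on a median of 25 fragments against 4.66 expected. All 21 intervals with a fold of 5 or more belonged to the strong ones, and the highest fold over raised input was 4.38. That the 21 were strong follows from the calling formula: 18 fragments at background expectation, at 5.26-fold, already gave a −log10 q of 5.01. By the same formula a lower fold reaches a given q where input is deeper. Expected pileup among the strong intervals ran on across the cut, from 7.79 just below it to 8.14 just above it.

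**Figure D1:**
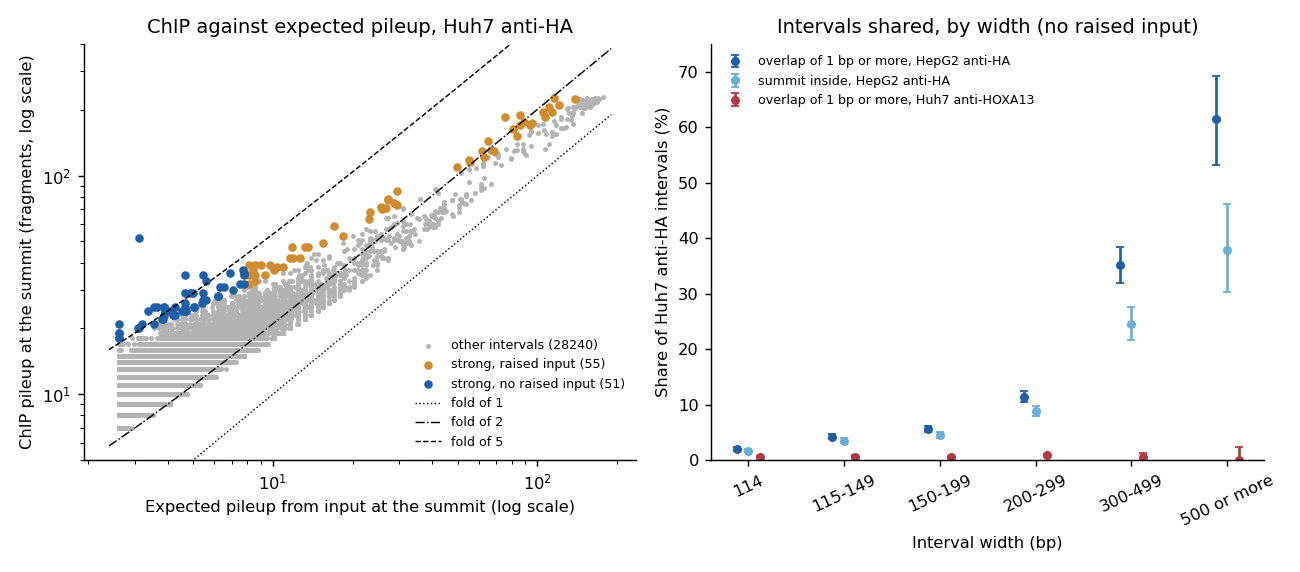
Left: ChIP pileup at each summit against the pileup that input predicts, both on log scales; lines mark folds of 1, 2 and 5, with the strong intervals in colour. Right: share of intervals without raised input that overlap another list, by width, with exact binomial 95% intervals; the HepG2 anti-HA share rises from 1.99% to 61.4%, while the Huh7 anti-HOXA13 share stays below 1% in each class.

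The highest interval lay on chromosome 21 at 9825534 to 9826345 (GRCh37, as are all positions here). It held 52 ChIP fragments where 4 input fragments, scaled to 3.11, set the expectation, which gave a fold of 12.9 (9.70 to 16.9; 95% Poisson interval of the ChIP pileup). It was the only autosomal interval above 8-fold. The same place carried a HepG2 anti-HA interval of 38.0-fold that spanned 8161 bp, against 812 bp in Huh7, with summits 28 bp apart, and a HepG2 anti-HOXA13 interval of 17-fold with its summit 208 bp away. The Huh7 anti-HOXA13 list had none there. Intervals of this width were rare among the 28346, as described below. The 95% intervals of fold, here and below, hold the expected pileup fixed. They leave out the error of the input count and the choice of the highest folds.

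The other 19 of the 20 highest intervals lay between 5.11- and 6.36-fold, on 18 to 35 ChIP fragments each, so their 95% intervals overlap and their order among themselves is not resolved. Second was chromosome 11, 37328269 to 37328574, with 35 fragments against 4.66 expected from 6 input fragments (6.36-fold, 4.49 to 8.78). Next was chromosome 7, 92838996 to 92839257, with 21 fragments against the background expectation of 2.61 (6.09-fold, 3.88 to 9.17). None of the 20 had raised input, and 5 stood at background expectation. All 20 were wider than the list median, with a median of 304.5 bp.

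Of the 20 highest intervals, 13 overlapped a HepG2 anti-HA interval, with summits a median of 31 bp apart. The share over all intervals was 8.71%, but that share rises with width and these 20 were wide. Among intervals without raised input it was 11.4% from 200 to 299 bp and 35.2% from 300 to 499 bp. In 6 of the 13 the fold was higher in HepG2. Beside the chromosome 21 and 7 regions above, which stood at 38.0 and 16.0 in HepG2, these were chromosome 5, 82561152 to 82561492 (5.62 in Huh7, 19.4 in HepG2) and 81683168 to 81683499 (5.26 and 15.4), chromosome 8, 94678410 to 94678810 (5.17 and 17.3) and chromosome 7, 88020641 to 88020920 (5.11 and 30.4). In the other 7 the HepG2 fold was lower, from 2.11 at chromosome 5, 1524178 to 1524469 (5.73 in Huh7) to 4.56 at chromosome 16, 88772779 to 88773048 (5.33 in Huh7). Chromosome 21 apart, fold in the HepG2 list therefore spanned 2.11 to 30.4 over places whose Huh7 folds lay close together. The lists differ in depth and strength, and the difference at single places was not tested.

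The remaining 7 of the 20 had an interval in none of the other lists, as was the case for 89.9% of all intervals. The chromosome 11 interval led them. It was followed by chromosome 1, 80069371 to 80069851, with 25 fragments against 3.56 (5.70-fold, 3.77 to 8.32) and chromosome 12, 39630899 to 39631272, with 19 against 2.61 (5.54-fold, 3.45 to 8.50). The others were chromosome 8, 105479291 to 105479445, chromosome 9, 2771129 to 2771453, chromosome 4, 10836173 to 10836383, and chromosome 3, 148709643 to 148710038, at 5.26, 5.26, 5.14 and 5.11. None of the 20 overlapped the Huh7 anti-HOXA13 list, which overlapped 0.631% of all intervals, too few to expect any among 20. At the edge of the fold of 5, chromosome 17, 12196688 to 12196826, at 4.99-fold, met a Huh7 anti-HOXA13 interval of 4.79-fold with summits 16 bp apart, and chromosome 5, 90515122 to 90515375, at 5.01-fold, met none. Between 4- and 5-fold 2 of 201 intervals (0.995%) overlapped that list.

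Every autosome had an interval of at least 4.19-fold, the value of the leader on chromosome 20, at 57582182 to 57582554. On 15 of the 22 autosomes the leader reached 5-fold. On chromosome 14 the leader, at 85109941 to 85110138, stood at 4.85-fold and coincided with a HepG2 anti-HA interval of 13.3-fold. On chromosome 6 it lay at 28849094 to 28849268, at 4.93-fold, with a HepG2 anti-HA interval of 4.65-fold whose summit was 3 bp away. In all, 11 of the 22 leaders overlapped a HepG2 anti-HA interval, 1 a Huh7 anti-HOXA13 interval and 1 a HepG2 anti-HOXA13 interval, where the shares over all intervals were 8.71%, 0.631% and 1.39%. The HepG2 anti-HA share rises with width, as described below, and the comparison was not matched for width.

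Ranking by q in place of fold brought up deep input. Among the 10 intervals with the highest −log10 q, 7 had raised input. Chromosome 17, 22261521 to 22261647, ranked second with 186 ChIP fragments against 75.3 expected (2.45-fold, 2.11 to 2.83) and lay at the edge of the peak-free stretch of the centromere. Chromosome 16, 46422552 to 46422682, followed with 190 against 86.2 (2.19-fold), and chromosome 1, 564500 to 564807, with 227 against 116 (1.95-fold). These 3 places also met intervals of both HepG2 lists, at 2.49- and 3.41-fold, 2.17- and 2.68-fold, and 1.83- and 1.80-fold with anti-HA and anti-HOXA13, and none in Huh7 anti-HOXA13. On chromosomes 17 and 16 the HepG2 summits lay 8 to 12 bp from the Huh7 summit. On chromosome 1 they lay 568 bp (anti-HA) and 555 bp (anti-HOXA13) away. In HepG2 intervals overlapping these 3 places were thus called at low folds with and without the tag. At chromosome 1, 161416831 to 161417129, 85 fragments against 29.5 gave 2.82-fold, and HepG2 anti-HA alone among the other lists had an interval, at 4.63-fold.

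Widths were short. The shortest interval was 114 bp, which is also the fragment length implied by the list, and 5823 intervals (20.5%) had exactly that width. The median was 148 bp, the 90th percentile 247 bp and the widest 1071 bp, and 86.7% were shorter than 2 such fragments. Together the intervals covered 4813404 bp. Across intervals, which share the libraries and are not independent, width was related weakly to ChIP pileup (Spearman rho 0.222) and to fold (rho −0.108). Fold was lower where the expected pileup was higher (rho −0.469). That relation is in part built in, since fold is divided by the expected pileup and no interval has a −log10 p below 2. The medians were 195 bp in HepG2 anti-HA, 158 bp in Huh7 anti-HOXA13 and 130 bp in HepG2 anti-HOXA13, whose shortest intervals were 135, 123 and 103 bp.

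Wider intervals were more often found with anti-HA in HepG2. The share that overlapped a HepG2 anti-HA interval was 2.23% at 114 bp, 5.49% from 115 to 149 bp, 7.28% from 150 to 199 bp, 14.5% from 200 to 299 bp, 39.1% from 300 to 499 bp and 63.7% at 500 bp or more. A wide interval also meets another by its length alone. The share whose single summit base lay inside a HepG2 anti-HA interval, which does not depend on width in that way, rose as well, from 1.87% to 39.8%. Without raised input the overlap ran from 1.99% to 61.4%. Overlap with Huh7 anti-HOXA13 was 0.803% or less in every width class, and it was 0 of 256 at 500 bp or more, where an exact interval allows up to 1.43%.

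The 10 widest intervals were of mixed strength. Of these, 9 overlapped a HepG2 anti-HA interval, 2 were strong and 3 had raised input. The widest, on chromosome 12 at 39836419 to 39837489, held 16 fragments at its summit against 3.81 expected (3.54-fold, 2.11 to 5.61). Chromosome 19, 2096213 to 2097147, was 935 bp wide at 4.24-fold and shared its summit to within 3 bp with a HepG2 anti-HA interval of 3.25-fold. Chromosome 6, 11537445 to 11538366, reached 3.88-fold on 13 fragments at background expectation, and stood at 5.89-fold in HepG2 anti-HA.

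Over all widths, 2470 intervals (8.71%, 8.39 to 9.05%) overlapped HepG2 anti-HA, which was 6.98% of that list. The counts were 179 (0.631%) for Huh7 anti-HOXA13, 1.75% of that list, and 393 (1.39%) for HepG2 anti-HOXA13, 0.508% of that list. No other list had an interval at 25477 places (89.9%). By fold, the share shared with HepG2 anti-HA was 20.4% below 2-fold, 6.79% between 2 and 2.5, 7.22% between 2.5 and 3, 9.91% between 3 and 4, 34.8% between 4 and 5, and 61.9% (38.4 to 81.9%) for the 21 highest. It was thus higher at both ends than between them. The intervals below 2-fold had a median expected pileup of 9.32, against 2.83 for those between 3 and 4. Among strong intervals without raised input 37 of 51 (72.5%, 58.3 to 84.1%) were shared with HepG2 anti-HA. Huh7 anti-HOXA13 had 0 of the 51, which allows up to 6.98% and is not distinguishable from its share of 0.631% over all intervals.

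Density differed between chromosomes and more so between arms. The covered span of the autosomes, from first to last peak of any list less peak-free stretches of 1 Mb or more, was 2697.53 Mb and held 10.5 intervals per Mb. Chromosomes 7, 3, 6 and 20 were densest, at 13.9, 13.8, 13.4 and 13.2 per Mb. Chromosomes 21, 10, 4 and 18 were sparsest, at 5.04, 5.25, 6.81 and 6.97. The densest exceeded the sparsest 2.75 times. Median fold varied little by chromosome, from 2.46 to 2.77, and so did median width, from 143.5 to 156 bp. The input under the intervals varied more: raised input lay under 1.68% of the intervals of chromosome 21 and 1.80% of chromosome 13, but under 23.3% of chromosome 19 and 24.5% of chromosome 22, and the share at background expectation ran from 8.24% on chromosome 22 to 31.8% on chromosome 10.

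Of 17 chromosomes with both arms covered, 5 had at least 2 times the density on 1 arm. Chromosome 9 had 3.26 intervals per Mb on 9p and 12.7 on 9q, a ratio of 3.91 (3.29 to 4.66; conditional exact 95% interval). On chromosome 11 the short arm was denser, with 14.9 against 5.32 (2.80, 2.48 to 3.16), and on chromosome 6 the long arm, with 17.2 against 6.46 (2.66, 2.38 to 2.98). Chromosome 20 had 19.7 on 20p and 8.11 on 20q (2.42, 2.09 to 2.82), and chromosome 4 had 11.7 on 4p and 5.04 on 4q (2.33, 2.08 to 2.61). The denser arm was thus the short one on 11, 20 and 4 and the long one on 9 and 6. These densities count mostly weak calls, since 1875 of the 28346 intervals reached a q of 0.05. Intervals short of that q alone gave ratios of 4.03 on 9, 2.85 on 11, 2.78 on 6, 2.44 on 20 and 2.30 on 4. Each of these arms held only 0 to 2 strong intervals, too few to compare. Lesser contrasts whose interval lay above 1 were found on chromosomes 2, 3, 7, 10, 12, 17 and 19, and the intervals of chromosomes 1, 5, 8, 16 and 18 included 1. These 95% intervals treat the calls as independent, but the calls cluster: counts in 5 Mb bins had a variance of 19.1 times their mean. The 95% intervals are therefore too narrow, and one above 1 does not by itself separate a lesser contrast from 1.

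The Huh7 anti-HOXA13 list, made with another antibody from untagged cells and their own input, had the same denser arm on all 5 of these chromosomes. Its ratios were 4.34 on 9, 2.30 on 11, 2.42 on 6, 2.69 on 20 and 2.69 on 4. Over the 17 chromosomes the denser arm was the same in 15, the exceptions being 5 and 8, where the ratios here were 1.04 and 1.00. In the HepG2 lists no chromosome reached a ratio of 2, and the denser arm was the same in 11 of 17 with anti-HA and in 5 of 17 with anti-HOXA13. In these libraries the 5 contrasts were thus present in both Huh7 lists and stood below 2 in both HepG2 lists.

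The input moved with these contrasts in part. At the intervals themselves, the median expected pileup was higher on the denser arm in 4 of the 5 (3.80 on 9q and 3.36 on 9p; 3.54 on 4p and 3.11 on 4q; 4.48 on 20p and 4.20 on 20q; 3.14 on 6q and 3.11 on 6p). Chromosome 11 went the other way, with 3.46 on 11p and 3.88 on 11q. The share of intervals at background expectation was lower on the denser arm in all 5, for example 11.7% on 9q against 19.5% on 9p. Over all 17 chromosomes, with these 5 counted among them, the denser arm had the higher median expected pileup in 11 and the lower share at background in 14. These values cover called intervals only, not the whole arm, and the part of the input in the contrasts was not tested.

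Within arms the density, again mostly of weak calls, changed in long steps. In 522 bins of 5 Mb the count ran from 0 to 174 with a median of 49 and a variance of 19.1 times its mean. Chromosome 3 held 30 intervals from 55 to 85 Mb (1.00 per Mb), where HepG2 anti-HA held 243, and 117 in the next 5 Mb. Chromosome 9 held 25 from 5 to 30 Mb, against 137 in HepG2 anti-HA, and chromosome 4 held 1 from 180 to 190 Mb, against 117. The longest stretch without an interval, on chromosome 4 from 178303212 to 187026206, spanned 8.72 Mb. It also held 0 Huh7 anti-HOXA13 intervals, but 88 with anti-HA and 99 with anti-HOXA13 in HepG2. This difference was not tested, and input over the stretch was not examined.

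At the other end, 10 runs of adjacent 5 Mb bins held at least 100 intervals in every bin. In 6 of them HepG2 anti-HA had fewer intervals and in 4 it had more. Among the 6, chromosome 13 held 288 intervals from 65 to 75 Mb (28.8 per Mb), where HepG2 anti-HA held 45. Chromosome 4 held 254 from 20 to 30 Mb, against 61 in HepG2 anti-HA. Among the 4, chromosome 2 held 550 from 155 to 180 Mb against 687, and chromosome 20 held 236 from 5 to 15 Mb against 413. In 9 of the 10 runs no interval exceeded 4.35-fold. The exception was chromosome 2 from 140 to 150 Mb, with 248 intervals (HepG2 anti-HA 261), which holds the 5.59-fold interval at 145222361 to 145222663. Median expected pileup in the 10 runs lay between 3.10 and 4.78. By single Mb, the densest bins were chromosome 3 from 87 to 88 Mb with 50 intervals, chromosome 1 from 228 to 229 Mb with 49, and chromosome 13 with 42 from 65 to 66 Mb and 41 in the next. Across the 522 bins, which share chromosomes and libraries, the count was related to that of Huh7 anti-HOXA13 with a Spearman rho of 0.863 (Pearson r 0.757), and to that of HepG2 anti-HA with a rho of 0.225, to HepG2 anti-HOXA13 with −0.008, and to the median expected pileup of the bin with 0.423.

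**Figure D2:**
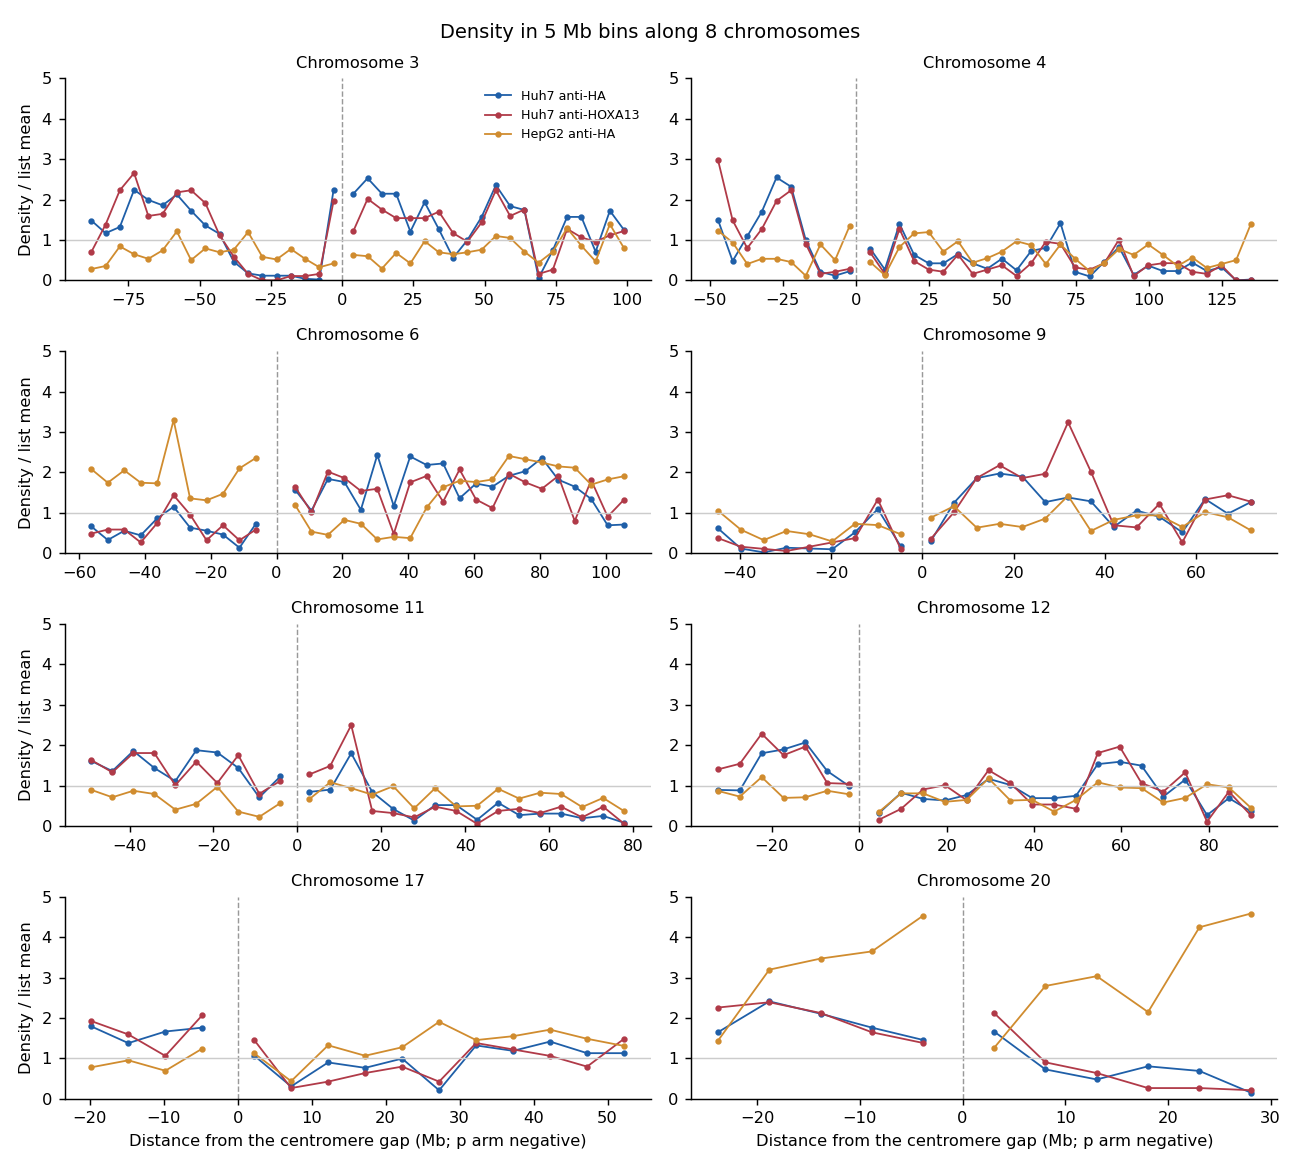
Density in 5 Mb bins, divided by the mean density of the same list, against distance from the centromere gap in Mb (p arm negative) on 8 chromosomes. The Huh7 anti-HA and Huh7 anti-HOXA13 lines rise and fall at the same places, as at the sparse run of 3p and the dense arm of 9q. The HepG2 anti-HA line does not drop to near 0 over the sparse run of 3p, where that list holds 243 intervals, and on chromosome 9 its arms differ in the same direction by a lesser ratio of 1.52.

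Neighbouring summits lay a median of 42582.5 bp apart, and 18.3% of neighbours were within 10 kb. The closest grouping was on chromosome 16, where 51 intervals filled 46386219 to 46435513. Their median expected pileup was 139.75, about 53.5 times background, and the highest fold among them was 2.19. In HepG2, 40 intervals lay there with anti-HA and 44 with anti-HOXA13. Next came chromosome 1, 228745519 to 228782202, with 26 intervals, 10 of them strong, and a median expected pileup of 26.3. A different kind of group lay on chromosome 13 from 65376086 to 67912755: 104 intervals, each within 100 kb of the next, with 0 strong, a median expected pileup of 3.63 and no fold above 3.48. HepG2 anti-HA held 7 intervals there and Huh7 anti-HOXA13 29.

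In 5 stretches the expected pileup itself was high over many intervals, taken as at least 20 intervals expected over 20 fragments within 2 Mb of one another. They held 349 intervals, 19 of the 106 strong ones and 0 of the 21 with a fold of 5 or more. The chromosome 16 group stood at 53.5 times background here, and in HepG2 at 43.9 times with anti-HA and 45.6 times with anti-HOXA13; Huh7 anti-HOXA13 had 1 interval there, at 29.6 times. By contrast, chromosome 14, 30397160 to 32672930, stood at 11.8 times background here and 13.6 times in Huh7 anti-HOXA13, but at 1.62 times with anti-HA and 1.24 times with anti-HOXA13 in HepG2. Chromosome 3, 86997320 to 88107888, stood at 7.14 and 4.84 times in the Huh7 lists and 1.00 times in both HepG2 lists. Chromosome 11, 66024739 to 71159656, stood at 5.59 and 3.28 times in Huh7, and at 1.95 times with anti-HA and 1.00 times with anti-HOXA13 in HepG2. Chromosome 1, 228745519 to 231114787, stood at 3.50 and 2.33 times in Huh7, and at 3.22 and 1.18 times in HepG2. These multiples are medians over the called intervals of each list. At 3 of the 5 stretches these multiples were higher in both Huh7 lists than in either HepG2 list. The stretches were picked by the expected pileup of the Huh7 anti-HA list, so a high multiple in that list was fixed beforehand. An expected pileup cannot lie below background, and input over the whole stretches was not measured.

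On chromosome 14 the expected pileup dropped sharply at the far edge of the stretch. On the near side intervals with a moderately raised expectation reached beyond its start at 30397160, back to 29780683, and no interval lay in the 1 Mb before that. From there the median expected pileup over 250 kb steps was 10.9, then between 8.07 and 20.2 in the next 6 steps, and then 31.1, 32.6, 41.5, 62.9 and 52.8. The last interval of the stretch ended at 32672930, and 54.7 kb farther the next, at 32727679 to 32727807, was expected at 3.19. ChIP pileup was higher where input was, with a median of 24 in the first step and 97 in the step with the highest input. Calling requires this, because a called summit must exceed its expected pileup. The median fold was 1.90 in the first step, 1.47 in the step that holds the edge and 2.36 in the next. The stretch contributed 1 strong interval.

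Intervals over raised input lay more often beside centromeres and chromosome ends than intervals overall. Within 1 Mb of a centromere gap lay 462 intervals (1.63%, against 1.32% of the covered length), 151 of the 2286 with raised input (6.61%) and 17 of the 106 strong ones (16.0%). Within 1 Mb of a chromosome end lay 557 intervals (1.96%, against 1.45% of the covered length), 137 of those with raised input (5.99%) and 11 of the strong ones (10.4%). Of the 51 strong intervals without raised input, 1 lay within 1 Mb of a centromere gap and 1 within 1 Mb of an end (each 1.96%, 0.0496 to 10.4%). Within 5 Mb, 3 of the 51 lay by a centromere gap (5.88%, against 6.51% of the length) and 11 by an end (21.6%, 11.3 to 35.3%, against 7.23% of the length). The part of raised input in these shares was not tested.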

How the data were processed

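The authors deposited 4 MACS2 peak lists, each for 1 ChIP library and its own input, going by the names of the files. Alignment was with BWA, per the submitters' processing notes, and the sources used here name no versions or settings. Those notes name GRCh38, but the sequence names in the lists are those of GRCh37 with decoy, so positions are given as GRCh37, 1-based, and were not converted. Each deposited interval has a fold (the ratio at the summit), −log10 p-value and −log10 q-value from the authors, and another whole number, the deposited summit offset. The folds, p and q printed are the authors'.

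Whole-number ChIP pileup and expected pileup were solved from the deposited fold and p with MACS2's published formulas for all but 2 of 28346 intervals, and checked on simulated data. The expected pileup was set by the genome background at 18.3% of intervals, by input at the summit at 33.8%, by 1 kb around it at 26.5% and by 10 kb at 21.4%. With a fragment of 114 bp and an effective genome of 2700000000 bp, the background corresponds to 61.8 M ChIP and 79.6 M input reads (M, 1e6), where the labels state 50 M. The labels also state a fragment of 200 bp, and a longer fragment would imply fewer reads, so these read numbers are estimates. Arms were split at the largest stretch free of peaks in all 4 lists, leaving out chromosomes 13, 14, 15, 21 and 22. Overlap is 1 bp or more. Intervals (95%: exact binomial, Poisson or conditional) cover counting error only, and no test between conditions was made.

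Named regions are the 20 highest by fold, the 10 highest by q, the 10 widest, each autosome's highest, the densest bins and arms with a ratio of 2 or more; just-inside and just-outside intervals, runs, groups and stretches of high input were chosen after their values were seen. The intervals and lists were chosen with earlier results of these data known. Genes near intervals, promoter shares, gene lists and sequences are not reported, because no GRCh37 genome or annotation was used here. Alternatives tried were thresholds, raised input, weak intervals, merging, arm split and overlap rules. Scripts used Python 3.11.15 with scipy 1.17.1, pandas 2.3.3, numpy 2.4.6 and, for figures, matplotlib 3.10.9.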

Additional observations from a re-analysis of the deposited data

Results flagged for a closer look

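On 4 chromosomes the denser arm was one arm in both Huh7 lists and the other arm in both HepG2 lists, with an interval of the ratio above 1 in each list. For Huh7 anti-HA the ratio of the denser to the sparser arm was 2.66 on chromosome 6 (q arm), 1.64 on chromosome 10 (q arm), 2.80 on chromosome 11 (p arm) and 1.66 on chromosome 17 (p arm). The opposite arm led in HepG2 anti-HA by 1.37, 1.22, 1.17 and 1.37, in the same order. Chromosome 16 had the same opposition (1.16 on the q arm in Huh7 anti-HA), but its Huh7 intervals included 1. This difference between the lines was not tested, and each list rests on 1 library.

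Signal outside chromosomes 1 to 22 was not used above. The decoy sequence, which collects human sequence not placed on the chromosomes, held 1218 intervals of the Huh7 anti-HA list, with a median expected pileup of 66.8 and a highest fold of 4.30. The unplaced contig GL000220.1 held 30, with a highest fold of 2.67. Chromosome X held 450, with a median expected pileup of 3.11, and its highest fold of 5.33 would have placed among the 20 highest autosomal intervals.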

How the results depend on the processing

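The 106 strong intervals became 1875 at q of 0.05, 8 at a −log10 q of 10, 21, 5805 and 1 at folds of 5, 3 and 8, and 51 without raised input. Median width moved from 148 to 279.5 bp among strong intervals and 145 bp without raised input. The share near centromere gaps moved from 1.63% to 7.01% within 5 Mb, 16.0% among strong intervals and 1.19% without raised input. Overlap with HepG2 anti-HA went from 2470 to 72 with strong intervals only in both lists, 1063 without raised input in both and 899 at equal list length; with HepG2 anti-HOXA13 it went from 393 to 20, 236 and 130, and with Huh7 anti-HOXA13 from 179 to 0 and, at equal length, 69. The 20 highest by fold shared 4 with the 20 highest by q and 0 with the 20 highest by pileup less expected pileup. Median spacing went from 42582.5 to 46412.5 bp without raised input, and 5 stretches of high input became 2 at an expected pileup over 30, both chosen after seeing the data. These alternatives keep fewer intervals or other intervals by construction.

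All 5 ratios stayed at 2 or more, with the same side denser, in the 35 recomputed values that could move. Taking no stretch off the span changed none of the 5 ratios, since the arms held no such stretch. Weak intervals, intervals without raised input, covered bases and merging recount mostly the same calls, so their similar ratios were largely set beforehand. The recomputed ratios ran from 3.66 to 4.03 on chromosome 9, 2.53 to 3.38 on 11, 2.45 to 2.79 on 6, 2.30 to 3.25 on 20 and 2.17 to 29.3 on 4. The 29.3 came from splitting chromosome 4 at the longest stretch without an interval of this list. That stretch does not lie at the centromere, so the 29.3 does not compare 4p with 4q.

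With 1 ChIP and 1 input library leaving out a replicate was not possible. No paired analysis was possible because each group has 1 sample. At a median of 11 ChIP fragments per summit most single folds are imprecise, and no interval here has a −log10 p below 2, so weaker places are not seen. Promoter windows were not run.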
